A study of Mus musculus with 2 samples.

Results

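A set of 10 genes of the IL-12, interferon and CC chemokine axis was followed in regulatory T (Treg) cells of injured mouse muscle. They are the IL-12 receptor genes Il12rb1 and Il12rb2, the interferon-gamma receptor genes Ifngr1 and Ifngr2, the type I interferon receptor genes Ifnar1 and Ifnar2, the cytokine gene Ifng, and the CC chemokine genes Ccl3, Ccl4 and Ccl5. Members were taken by gene symbol, and all 10 were found among the 23337 symbols of the deposited count table. The receptor for interferon-gamma was abundant on its Ifngr1 side, at closely similar levels in both libraries, while its Ifngr2 partner was 0.393 times as high in the IL-33 sample as in the PBS sample. Il12rb1, Ccl3 and Ccl4 were also lower in the IL-33 sample, and Ccl5 was 1.80 times as high. Il12rb2 had 0 counts and Ifng at most 1 count in either library.

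IL-12 is a cytokine of dendritic cells and macrophages that drives T cells toward the Th1 fate, in which they make interferon-gamma. Its receptor pairs the IL12RB1 chain, which binds the kinase TYK2, with the IL12RB2 chain, which recruits STAT4. Interferon-gamma is bound by IFNGR1 with IFNGR2 as the partner chain, and type I interferons by IFNAR1 with IFNAR2; both receptors act through JAK kinases and STAT transcription factors. CCL3, CCL4 and CCL5 are secreted chemokines that attract leukocytes through receptors such as CCR1 and CCR3, and activated T cells, NK cells and macrophages are their usual sources.

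Treg cells are CD4 T cells that depend on the transcription factor Foxp3 and dampen immune reactions. They were sorted from the tibialis anterior, quadriceps and gastrocnemius muscles of 8-week-old male mice of the Foxp3-IRES-GFP/C57BL/6 background, in which a fluorescent reporter marks Foxp3 expression. Muscles of both groups had been injured with the snake toxin cardiotoxin 4 days earlier. The Cardiotoxin/rIL-33 group also received 0.3 ug of recombinant IL-33, an alarm cytokine of damaged tissue, into the muscle, and the Cardiotoxin/PBS group received PBS. Each group held 1 library of 5000 cells, and whether those cells came from 1 mouse or several is not given in the sources used here. The design compares Treg expression with and without added IL-33. Without replicates no test was possible, and every "higher" or "lower" sets 1 sample beside the other and cannot be read as an effect of treatment.

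The IL-33 sample held 4080791 counts and the PBS sample 1573707, a depth ratio of 2.59. Levels are in CPM, a gene's count scaled to the total of its sample, so that a single read count is worth 0.245 CPM (IL-33) or 0.635 CPM (PBS). Where no read was counted, a true level of up to 3 counts cannot be told from 0, which is 0.735 CPM (IL-33) or 1.91 CPM (PBS). Ratios of CPM carry the exact 95% counting interval, which covers counting error only, since amplified reads without molecular identifiers are not independent molecules. Of the 16 genes of a Treg identity list, 14 were within 2-fold, among them Ctla4 at 6186 against 6246 CPM, and 2 were higher, Tigit and Foxp3. Foxp3, the defining gene, rested on a single count in the PBS sample against 40. All 11 T cell genes in the table were within 2-fold. Of all genes reaching 5 CPM in either sample, 31.8% were 2-fold higher or lower. Among those averaging 200 CPM or more, where most genes of both lists lie, that share was 2.22%.

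Among the 8 members that reached a floor of 5 CPM in either sample, 0 were 2-fold higher in the IL-33 sample, 4 were 2-fold lower (Il12rb1, Ifngr2, Ccl3 and Ccl4) and 4 were within 2-fold. Fold calls used log2 of CPM with 1 added to each value, which shrinks the differences of low genes. Over all 9005 genes past the same floor, 15.5% were 2-fold higher and 16.3% 2-fold lower. That share depends on level: among genes with a mean under 20 CPM, where Ccl3 and Ccl4 lie, 27.2% were 2-fold lower, and among those of 20 to 50 CPM, where Il12rb1 and Ifngr2 lie, 17.8%. The shares that were 2-fold higher in those ranges were 29.5% and 13.1%. For 50 to 200 CPM, the range of Ifnar1, 6.48% were 2-fold lower and 4.43% higher, and for 200 CPM or more, the range of Ifngr1, 1.01% and 1.21%. Ccl3 passed the floor through the PBS sample alone, so it could be counted only as lower or as within 2-fold. An interval that left out 1 was found for 7 of the 8 members, and for 63.7% of all genes past the floor, so leaving out 1 does not set a gene apart. The median log2 fold was -0.67 over these 8 members and -0.08 over all genes past the floor. Il12rb2 and Ifng did not reach 5 CPM in either library. Summed over all 10 genes, the level was 1956 CPM in the IL-33 sample and 1951 CPM in the PBS sample, most of it from Ifngr1.

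**Figure D1:**
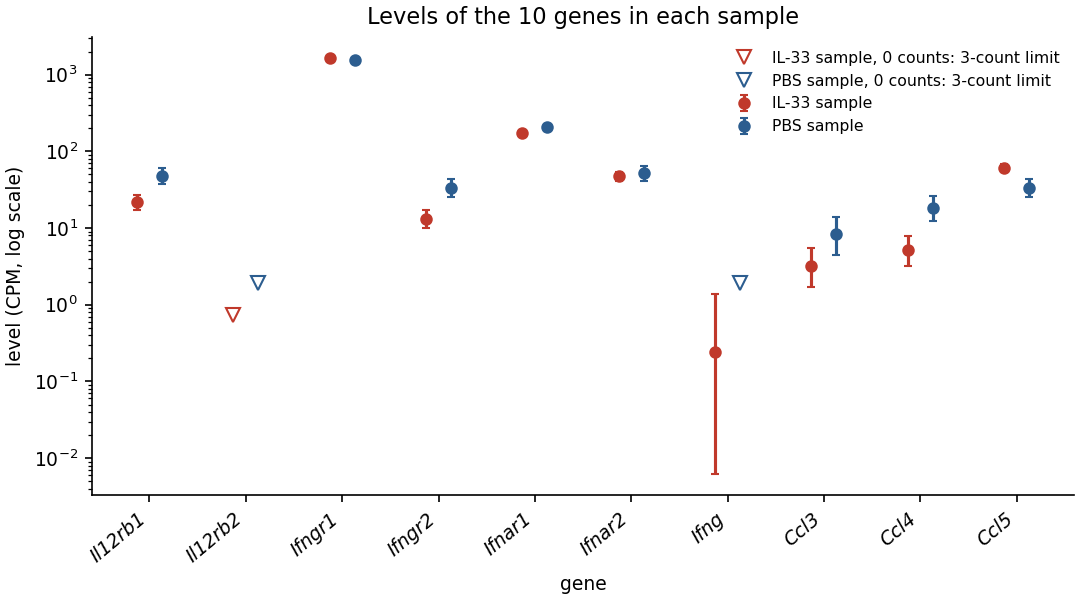
Level of each of the 10 genes in CPM (log axis) in the IL-33 sample (red) and the PBS sample (blue), 1 library each; bars are exact 95% Poisson counting intervals and open triangles mark the 3-count limit where the count was 0. Ifngr1 stands at 1629 and 1553 CPM, and the intervals of the libraries lie apart for Il12rb1, Ifngr2, Ccl4 and Ccl5.

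Il12rb1, the chain that the IL-12 and IL-23 receptors share, was lower in the IL-33 sample. It had 88 counts in the IL-33 sample and 76 in the PBS sample, or 21.6 and 48.3 CPM. The ratio was 0.447 (0.325 to 0.615), so the counting interval left out 1 but held 0.5 (chromosome 8, 70808449 to 70821424, plus strand, 16 exons in the principal transcript). Il12rb2, the chain specific to the IL-12 receptor, had 0 counts in both libraries, which allows up to 0.735 CPM in the IL-33 sample and 1.91 CPM in the PBS sample (chromosome 6, 67291318 to 67376188). Il12rb1 therefore made up 100% of the pair's counts, with exact 95% lower limits of 95.9% and 95.3%. Whether Il12rb2 differed between the libraries was not detectable at this depth. Il12rb2 also overlaps Serbp1 on the opposite strand by 6419 bp, and with the counting rules unknown, reads there could have been lost or given to Serbp1. Il23r, which pairs with IL12RB1 in the IL-23 receptor, had 44 counts in the IL-33 sample and 0 in the PBS sample. The lower limit of its ratio was 4.41. The Il23r difference thus ran opposite to that of Il12rb1. However, Il23r passed the floor through the IL-33 sample alone, so it could be counted only as higher or as within 2-fold. Its mean lay under 20 CPM, where 29.5% of genes were 2-fold higher.

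Most other genes of IL-12 family signalling were within 2-fold. Of 14 list genes besides the members, 11 passed the floor, of which 1 was 2-fold higher (Il23r), 0 were lower and 10 were within 2-fold, with a median log2 fold of -0.16. For comparison, 31.8% of all genes past the floor were 2-fold higher or lower, and 10.9% of those averaging 50 to 200 CPM. Il6ra, the IL-6 receptor chain, measured 49.0 against 78.8 CPM (ratio 0.622, interval 0.495 to 0.785), and the stress kinase gene Mapk14 measured 80.9 against 136 CPM. Stat3, a transcription factor gene, and Jak2, the kinase bound to IL12RB2 and IFNGR2, stood at 655 against 734 CPM and 258 against 241 CPM. The following were chosen after their values were seen. Stat4, the transcription factor that IL-12 activates, was at 147 CPM in the IL-33 sample and 143 CPM in the PBS sample, a ratio of 1.02 (0.878 to 1.20). Tyk2 measured 80.4 against 123 CPM (ratio 0.655, interval 0.547 to 0.787), and Il27ra, the IL-27 receptor chain, measured 141 against 214 CPM (ratio 0.660, interval 0.576 to 0.757). Il6st, the shared signalling chain gp130, had a ratio of 1.28 (1.04 to 1.59). Ratios of these genes thus lay on both sides of 1.

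Ligand genes of these receptors had few or no counts. Of 15 genes for IL-12 family cytokines, IL-18 and interferons, 12 had 0 counts in both libraries, including Il12b, Il23a, Il27 and Ifnb1. Il12a had 1 count in the IL-33 sample and Il18 had 5, with 0 for each in the PBS sample. Ebi3, a subunit of IL-27 and IL-35, was the only list gene past the floor, with 112 counts against 14.

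The interferon-gamma receptor genes differed from each other in both level and direction. Ifngr1, the ligand-binding chain, had 6649 counts in the IL-33 sample and 2444 in the PBS sample, or 1629 and 1553 CPM. Its ratio was 1.05 (1.001 to 1.10), and just 2.22% of genes averaging 200 CPM or more differed by 2-fold in either direction (chromosome 10, 19591949 to 19610229). Ifngr2, the chain that completes the signalling complex, had 54 and 53 counts, or 13.2 and 33.7 CPM. Nearly equal counts from libraries of unequal depth gave Ifngr2 a ratio of 0.393 (0.264 to 0.585; chromosome 16, 91547072 to 91565623). Within each library, a share of the pair's counts does not depend on how libraries are scaled. Ifngr1 took 99.2% of the pair's counts in the IL-33 sample (99.0 to 99.4) and 97.9% in the PBS sample (97.2 to 98.4). Per kilobase of transcript, Ifngr1 was 216 times the level of Ifngr2 in the IL-33 sample (165 to 288) and 81.0 times in the PBS sample (61.7 to 108). The odds of Ifngr1 to Ifngr2 counts were 2.67 times as high in the IL-33 sample (exact interval 1.79 to 3.99).

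The promoters of these genes are shown because these chains had the most unequal levels of the receptor pairs with counts for both chains. Each run is the 250 bases before the RefSeq start on GRCm38.p6, the assembly that mm10 names, 5′ to 3′ on the gene's strand. Capitals mark every match, on either strand, to the TATA box (TATAAA), the interferon-gamma activated site or GAS element (TTCNNNGAA) and the GC box (GGGCGG). The windows are chr10:19591699-19591948 (plus strand) and chr16:91546809-91547058 (plus strand).
Ifngr1: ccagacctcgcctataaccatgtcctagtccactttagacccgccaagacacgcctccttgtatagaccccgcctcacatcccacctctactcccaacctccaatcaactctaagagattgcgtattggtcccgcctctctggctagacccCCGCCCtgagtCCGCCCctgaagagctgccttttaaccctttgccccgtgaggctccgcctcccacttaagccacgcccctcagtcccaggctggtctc
Ifngr2: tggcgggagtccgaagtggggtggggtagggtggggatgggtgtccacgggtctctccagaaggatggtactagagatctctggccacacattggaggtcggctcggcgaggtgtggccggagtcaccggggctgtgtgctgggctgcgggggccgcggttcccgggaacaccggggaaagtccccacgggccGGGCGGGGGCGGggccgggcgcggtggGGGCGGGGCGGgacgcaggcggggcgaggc
Ifngr1 held 2 GC boxes, written in the opposite orientation, and none of the other motifs. Ifngr2 held 4 GC boxes, beginning 57, 51, 30 and 25 bases before the start, and none of the others. Among all 32851 promoter windows of the same length, 32.7% held a GC box. Ifngr2 had 25 CpG dinucleotides and 74% G or C, against 11 and 59.2% for Ifngr1, and 89.3% and 64.4% of windows had fewer CpG. A match describes letters only and does not show that a factor binds there.

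The type I interferon receptor genes were closely similar in both libraries. Ifnar1 had 716 and 322 counts, or 175 CPM in the IL-33 sample and 205 CPM in the PBS sample, a ratio of 0.858 (0.751 to 0.981; chromosome 16, 91485238 to 91507441). Ifnar2 had 193 and 81 counts, or 47.3 and 51.5 CPM (ratio 0.919, interval 0.705 to 1.21; chromosome 16, 91372783 to 91405589). The Ifnar2 interval held 1, and neither gene has a settled direction once another scaling adds up to 0.12 to each log2 value: the Ifnar2 value then reached -0.0011 and that of Ifnar1 -0.10. Ifnar1 made up 78.8% of the pair's counts in the IL-33 sample (76.0 to 81.4) and 79.9% in the PBS sample (75.7 to 83.7). The balance of the IFNAR chains was thus within counting error, with an odds ratio of 0.933 (0.688 to 1.26), beside 2.67 (1.79 to 3.99) for the IFNGR chains. The difference between these odds ratios was not itself tested.

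**Figure D2:**
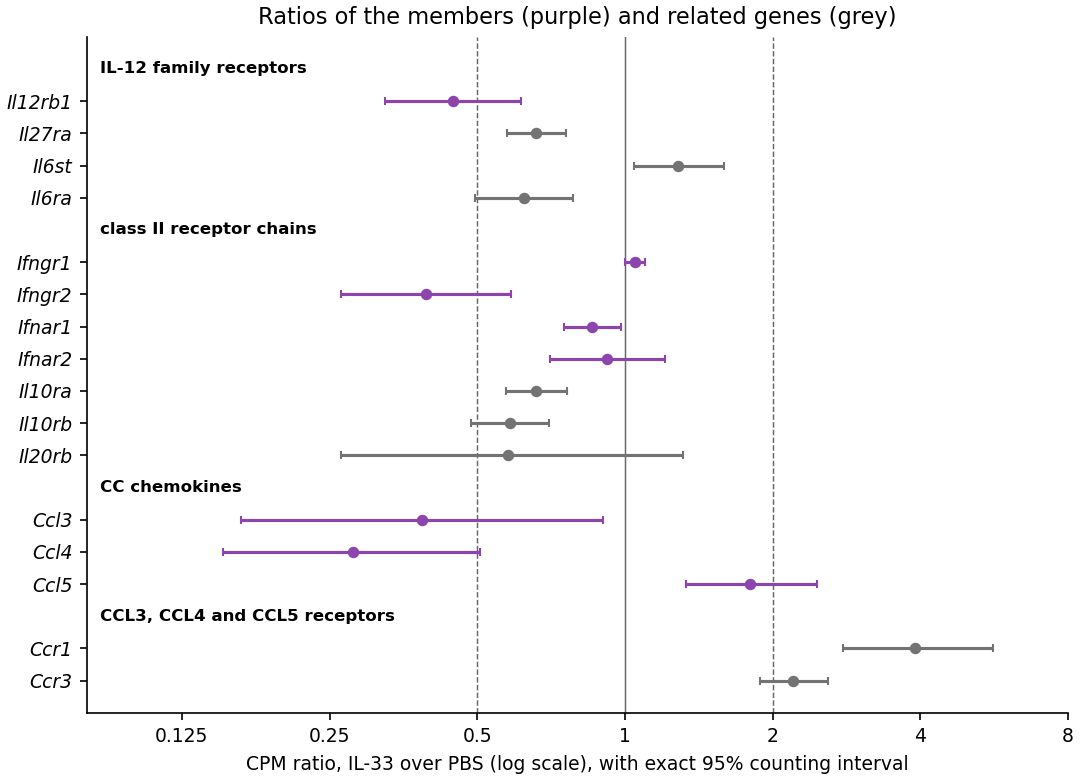
CPM ratio of the IL-33 over the PBS sample (log axis) for members (purple) and related genes (grey), grouped by role, with exact 95% counting intervals; dashed lines mark 0.5 and 2. Ifngr2, Il12rb1, Ccl3 and Ccl4 lie below 0.5, the other interferon receptor chains near 1, and Ccl5 at 1.80; Il23r is left out because its PBS count was 0.

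The genes around Ifngr2 had ratios on both sides of 1. Ifnar2, Il10rb, Ifnar1 and Ifngr2 lie in that order within 193 kb of chromosome 16, all on the plus strand. Il10rb, a chain of the IL-10 receptor, begins 0.574 kb after Ifnar2 ends, and a read-through gene model (Gm21970) overlaps Ifnar2 on the same strand, so reads could be split between them. Il10rb measured 73.8 against 126 CPM (ratio 0.583, interval 0.486 to 0.701). On the far side of Ifngr2, 8.88 kb away, Tmem50b measured 30.9 against 17.8 CPM (ratio 1.74, interval 1.15 to 2.72). Donson, a replication gene further along, had a ratio of 1.41 (1.08 to 1.86), and its abundant neighbour Son, a splicing cofactor, 0.912 (0.865 to 0.962). Donson and Son overlap on opposite strands, so reads could be shared between them. Gart, an enzyme gene of purine synthesis between Tmem50b and Son, had a ratio of 0.859 (0.510 to 1.49), and Olig1, Olig2 and Dnajc28 had 0 counts in both libraries. The 5 other cluster genes past the floor were all within 2-fold, with a median log2 fold of -0.13. Ifngr2 was the only cluster gene past it that was 2-fold lower. Of all genes past the floor, 16.3% were 2-fold lower, and 17.8% of those averaging 20 to 50 CPM, the range of Ifngr2. The median log2 fold of all genes past the floor was -0.08, so these values do not set the cluster apart.

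Most class II cytokine receptor chains past the floor, the family to which all 4 interferon receptor members belong, had ratios below 1. Of these, Ifnar1 and Ifnar2 were without a settled direction, and the interval of Il20rb held 1. Of 12 list genes, 7 passed the floor, 1 was 2-fold lower (Ifngr2), 6 were within 2-fold and 1 lay above 0 (Ifngr1). Of all 9005 genes past the floor, 4105 lay above 0 and 16.3% were 2-fold lower. The median log2 fold was -0.60, against -0.08 over all genes past the floor. Il10ra, which binds IL-10, measured 127 against 193 CPM (ratio 0.660, interval 0.572 to 0.762). Il20rb, thinly counted at 18 and 12 counts, had a ratio of 0.578 (0.264 to 1.32). Il28ra, the older symbol of the interferon-lambda receptor gene Ifnlr1, had 0 counts in both libraries.

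Genes downstream of the interferon-gamma receptor stayed within 2-fold of their PBS level. Of the 28 list genes besides the receptor chains, 25 passed the floor and all 25 lay within that range, with a median log2 fold of -0.06. Most of them averaged over 50 CPM, where few genes of any kind differ by 2-fold. That share was 10.9% for 50 to 200 CPM and 2.22% for 200 CPM or more, beside 31.8% of all genes past the floor. Jak1, the kinase bound to IFNGR1, measured 888 against 1041 CPM (ratio 0.853, interval 0.804 to 0.904), and Gbp7, a guanylate-binding protein gene, 654 against 471 CPM (ratio 1.39, interval 1.28 to 1.51). The interferon-induced genes farthest from 0 were Tap1, a peptide transporter gene, at 0.534 (0.462 to 0.618), Iigp1, an immunity GTPase gene, at 1.41 (1.14 to 1.76), and Gbp3, of the same family as Gbp7, at 0.712 (0.659 to 0.770). Gbp7, Irf1, Gbp2 and Cxcl10 were chosen after their values were seen. Irf1, an early interferon-induced transcription factor gene, was at 180 against 210 CPM, Gbp2 at 360 against 341 CPM, and the chemokine gene Cxcl10 at 87.5 against 91.5 CPM. Values in the IL-33 sample thus lay on both sides of those in the PBS sample.

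Type I interferon response genes lay on both sides of their PBS level. Of 27 list genes besides the receptor chains, 25 passed the floor, 7 were 2-fold higher, 2 lower and 16 within 2-fold, with a median log2 fold of 0.06. Over all genes past the floor, 15.5% were 2-fold higher and 16.3% 2-fold lower, 31.8% together. The list thus held more higher than lower genes, while the shares of all genes were nearly equal, a difference that was not tested. Those farthest from 0 were Oasl2 and Oasl1, with 34 and 32 counts in the IL-33 sample against 0 and 0. The lower limits of their ratios were 3.37 and 3.16. Oasl2 and Oasl1 passed the floor through the IL-33 sample alone, so they could be counted only as higher or as within 2-fold. Mx1, an antiviral GTPase gene, was lower at 0.357 (0.277 to 0.459), and Bst2, which encodes tetherin, higher at 2.84 (1.75 to 4.86). Ifit1, an antiviral RNA-binding protein gene and one of the most abundant of the list, measured 263 against 198 CPM (ratio 1.33, interval 1.17 to 1.51). The lists of both responses share Jak1.

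**Figure D3:**
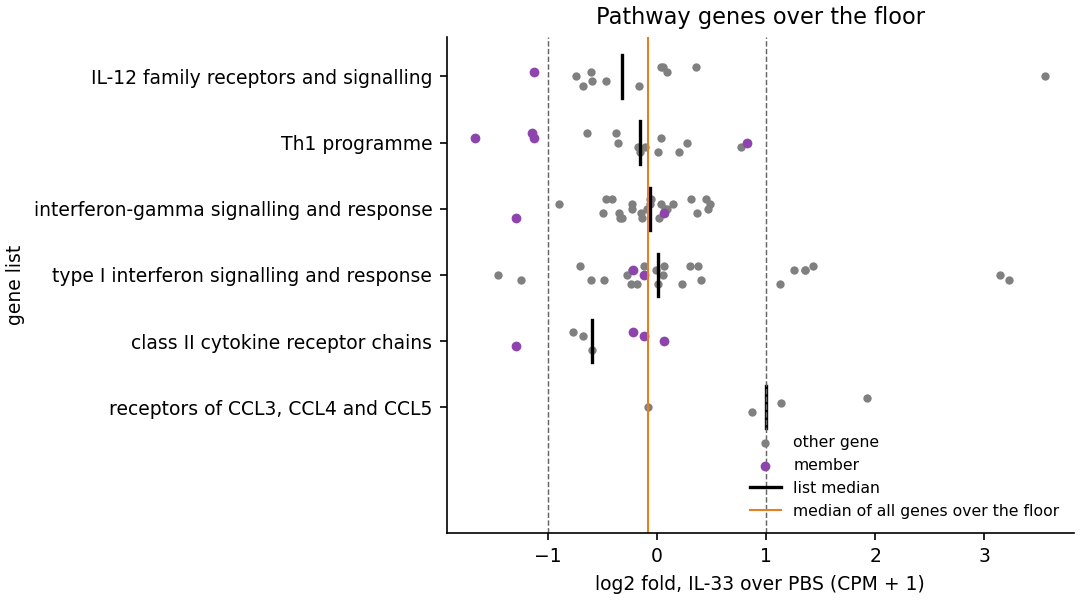
Log2 fold of the IL-33 over the PBS sample (CPM plus 1) for genes past the 5 CPM floor in 6 lists, 1 point per gene, members in purple; black bars are list medians, the orange line the median of all genes (-0.08), dashed lines 2-fold. In the interferon-gamma list Ifngr2, at -1.28, is the only point beyond a 2-fold line, while the type I interferon list holds points beyond both 2-fold lines.

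Ifng itself was close to undetected. It had 1 count in the IL-33 sample, 0.245 CPM (0.00620 to 1.37), and 0 in the PBS sample, which allows up to 1.91 CPM (chromosome 10, 118441046 to 118445892, plus strand). No fold is given, since both counts are under the 3-count limit. Of the 17 Th1 list genes besides the members, 11 passed the floor, all 11 within 2-fold, with a median log2 fold of -0.11. Among all genes past the floor, 31.8% were 2-fold higher or lower, and 10.9% of those averaging 50 to 200 CPM. Gzmb, the cytotoxic protease gene, was at 2052 against 1779 CPM and Cxcr3, a chemokine receptor gene of Th1 and type 1 Treg cells, at 277 against 299 CPM. The next were chosen after their values were seen. Runx3, a transcription factor gene of cytotoxic and Th1 cells, measured 126 against 196 CPM (ratio 0.641, interval 0.556 to 0.741). Havcr2, the gene of the inhibitory receptor TIM-3, had a ratio of 0.771 (0.613 to 0.974), and the IL-18 receptor chain genes Il18r1 and Il18rap had 0.780 (0.630 to 0.970) and 1.93 (0.725 to 6.45). Tbx21, the Th1 master regulator gene, had 26 and 8 counts, 6.37 and 5.08 CPM.

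The chemokine genes split by gene. Ccl5 had 247 counts in the IL-33 sample and 53 in the PBS sample, or 60.5 and 33.7 CPM (ratio 1.80, interval 1.33 to 2.47; chromosome 11, 83525778 to 83530518, minus strand). Ccl4 had 21 and 29 counts, or 5.15 and 18.4 CPM (ratio 0.279, interval 0.151 to 0.507; chromosome 11, 83662584 to 83664683, plus strand). Ccl3 had 13 counts in each library, or 3.19 and 8.26 CPM (ratio 0.386, interval 0.165 to 0.903; chromosome 11, 83647844 to 83649355, minus strand). Ccl3 and Ccl4 were thus lower in the library where Ccl5 was higher, and their intervals did not overlap that of Ccl5. In the Ccl3 and Ccl4 pair, Ccl3 took 38.2% of 34 counts in the IL-33 sample (22.2 to 56.4) and 31.0% of 42 counts in the PBS sample (17.6 to 47.1), so their proportion did not differ beyond counting error.

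The genes lie together on chromosome 11, where Ccl5 and Ccl4 mark the ends of 139 kb that also hold Ccl9, Ccl6 and Ccl3. Ccl4 begins 13.2 kb beyond Ccl3, on the opposite strand. Between them and Ccl5, Ccl6 had 5 and 7 counts and Ccl9 had 8 and 2, both under the floor. Taf15, an RNA-binding protein gene next to Ccl5, had 102 counts against 40, a ratio of 0.983 (0.676 to 1.46). The gene model Gm11428 had 9 and 5 counts, and Mmp28, Expi, 1100001G20Rik and Gm11435 had 0 in both. Among 18 other CC and C chemokine genes, 12 had 0 counts in both libraries and 2 passed the floor, both through the PBS sample. These were Ccl20, a ligand of CCR6, with 0 counts against 20, and Ccl2, a monocyte chemoattractant, with 0 against 10. The upper limits of their ratios were 0.0781 and 0.172. Per kilobase of transcript, Ccl5 had the highest level of these CC and C chemokine genes in both libraries.

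Promoters of Ccl3 and Ifng are shown beside those of the receptors because both genes had few counts. Ccl3 had 13 in each library and Ifng at most 1. These promoters were read in the same way from chr11:83649379-83649628 (minus strand) and chr10:118440796-118441045 (plus strand), with the same motifs in capitals.
Ccl3: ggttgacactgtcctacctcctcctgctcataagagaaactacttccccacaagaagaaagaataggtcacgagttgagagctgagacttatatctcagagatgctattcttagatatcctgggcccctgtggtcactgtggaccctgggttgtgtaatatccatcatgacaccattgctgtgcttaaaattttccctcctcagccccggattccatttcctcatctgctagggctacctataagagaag
Ifng: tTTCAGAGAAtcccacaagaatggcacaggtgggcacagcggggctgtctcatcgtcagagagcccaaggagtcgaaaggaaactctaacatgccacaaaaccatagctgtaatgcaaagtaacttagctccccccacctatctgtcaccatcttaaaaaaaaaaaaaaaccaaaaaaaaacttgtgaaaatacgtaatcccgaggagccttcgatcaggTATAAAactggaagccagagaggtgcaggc
Ccl3 held none of the motifs searched, and 2 CpG dinucleotides. Ifng held a TATA box that begins 30 bases before the start, a GAS match at 249 bases, and 6 CpG dinucleotides, the median of all windows. Of all windows, 12.4% held a TATA box and 7.02% a GAS match. Of the 10 members, 7 had a window in the RefSeq table, all but Il12rb1, Ccl4 and Ccl5. Il12rb2 and Ifnar2 each held 1 GAS match and Ifnar1 held 2 GC boxes.

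Of the genes for receptors and cell-surface binding partners of these chemokines that are described here, Ccr1 and Ccr3 were 2-fold higher in the IL-33 sample. Ccr1, a receptor for CCL3 and CCL5, measured 91.9 against 23.5 CPM (ratio 3.91, interval 2.78 to 5.64), and Ccr3, the eotaxin receptor that also binds CCL5, measured 259 against 118 CPM (ratio 2.21, interval 1.88 to 2.59). Sdc4, a heparan sulfate proteoglycan gene, had a ratio of 1.83 (1.57 to 2.15). Of the 8 list genes, 4 passed the floor, 2 of them 2-fold higher and 0 lower, with a median log2 fold of 1.002. The remaining gene past it was the adhesion receptor gene Cd44 at 669 against 707 CPM. Over all genes past the floor, 15.5% were 2-fold higher, and 4.43% of those averaging 50 to 200 CPM, the range of Ccr1 and Ccr3. Their median log2 fold was -0.08, and the difference from this list of 4 measured genes was not tested.

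Markers of other cells that make these chemokines were counted as well, and their part in the results was not tested. In bulk samples, fewer cells of a type and less RNA per cell cannot be told apart. All 16 CD8 T and NK cell markers were in the table, and they summed to 92.9 CPM in the IL-33 sample and 99.1 CPM in the PBS sample, mostly from Nkg7 (59.1 and 57.2 CPM) and Cd8b1 (21.6 and 13.3 CPM). The defining markers Cd8a, Ncr1, Klrb1c, Klrc1 and Klre1 had 0 counts in both. Of the 4 that passed the floor, 2 were 2-fold lower, Klrk1 with 10 counts against 17 and Tyrobp with 18 against 22, while Gzma, under the floor, had 10 against 0. The 16 monocyte and macrophage markers summed to 2940 against 2061 CPM, nearly all from Ccr2, which was at 2886 and 1987 CPM. Without Ccr2 the other 15 summed to 54.6 against 74.3 CPM, with Lyz2 at 19.1 and 38.8 CPM, and Cd68 and Fcgr1 at 0 counts in both. Ms4a7, a macrophage marker, had 0 counts against 25, while Itgam had 66 against 12 (ratio 2.12, interval 1.14 to 4.31), Ly6c2 40 against 11 and, under the floor, Mrc1 17 against 0 and C1qc 9 against 1. These markers thus ran in both directions. Markers that are neither at 0 nor among the 2 highest of their list were named with their values in view. Dendritic cell markers summed to 21.6 and 21.0 CPM, with Itgax at 0 counts against 19, Xcr1 at 42 against 12 and Siglech at 28 against 2. Batf3, Ccl22, Cd209a, Clec10a, Clec9a and Flt3 had 0 counts in both. The 10 of 11 neutrophil markers in the table summed to 86.3 and 81.3 CPM, with Mmp9 (62.5 and 23.5 CPM) and Cxcr2 (14.2 and 26.7 CPM) the highest by their mean over both libraries and Ltf at 5.15 and 25.4 CPM, while S100a8, S100a9, Camp, Mmp8, Ngp and Retnlg had 0 counts. The 9 of 10 B cell markers in the table summed to 40.4 and 33.04 CPM. Cd79b (29.7 and 23.5 CPM) and Cd22 (1.72 and 5.72 CPM) were the highest by that mean, and Blk was at 6.37 and 0.635 CPM. Ebf1, Fcrla and Pax5 had 0 counts in both, and mast cell and basophil markers had 0 counts throughout. Fibroblast and muscle markers summed to 0.245 against 68.6 CPM, with Col3a1 at 0 counts against 78 and Dcn at 0 against 24. The other collagen genes of that list, Col1a1 and Col1a2, and the muscle genes Ckm, Des and Pax7 had 0 counts in both.

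**Figure D4:**
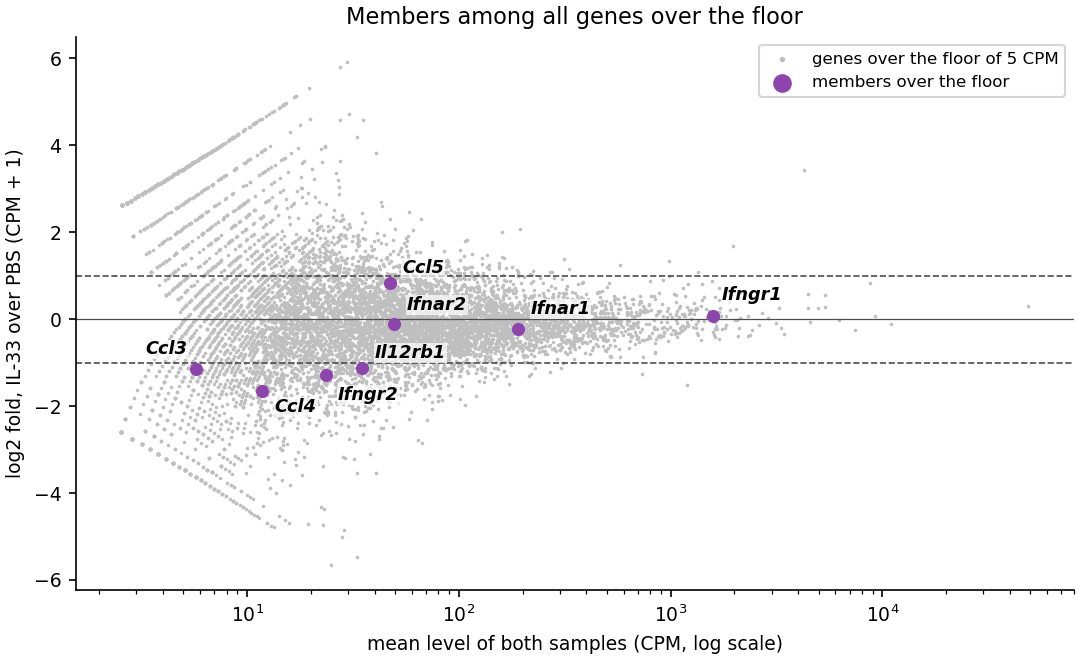
Log2 fold of the IL-33 over the PBS sample (CPM plus 1) against the mean level of both libraries in CPM (log axis), 1 point per gene past the floor (grey, 9005 genes) with the 8 members past it in purple; dashed lines mark 2-fold. Ccl3, Ccl4, Ifngr2 and Il12rb1 lie below the lower line at levels where many genes do, and Ccl5 lies just under the upper line at 0.83.

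Across the members, levels per kilobase of transcript spanned from undetected to among the highest of all genes. In the IL-33 sample Ifngr1 stood at 771 CPM per kb, rank 98 of the 20892 genes with an annotated length, and in the PBS sample at 735 CPM per kb, rank 88. In the IL-33 sample Ccl5 followed at 114 CPM per kb (100 to 129), then Ifnar1 at 44.9 and Ifnar2 at 15.5. Ccl4 at 7.80 (4.83 to 11.9) and Il12rb1 at 7.51 (6.02 to 9.25) had overlapping counting intervals, as did Ccl3 at 4.16 (2.21 to 7.11) and Ifngr2 at 3.57 (2.68 to 4.66). In the PBS sample Ccl5 at 63.3 CPM per kb (47.4 to 82.8) and Ifnar1 at 52.3 (46.8 to 58.4) had overlapping intervals, as did Ifnar2 at 16.9 (13.4 to 21.0), Il12rb1 at 16.8 (13.2 to 21.0) and Ccl4 at 27.9 (18.7 to 40.1). Ccl3 at 10.8 (5.74 to 18.4) and Ifngr2 at 9.08 (6.80 to 11.9) were again the lowest of the detected members. With the longest annotated Ccl5 transcript, Ccl5 would stand at 90.6 and 50.4 CPM per kb, the latter under Ifnar1. Ifng and Il12rb2 came last in both libraries.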

How the data were processed

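The authors deposited raw counts per gene symbol for 2 libraries. The genome mm10 and the programs Cufflinks 2.2.1 and TopHat2 2.0.10 are named per the submitters' processing notes. How reads were counted, against which annotation and with which strand setting is not given in the sources used here, so overlapping genes could share reads. Per the labels' protocols, amplified poly(A) cDNA was sequenced as paired 25 bp reads. Columns were tied to libraries by name, and 0 columns stayed unused. CPM were computed on the total count, and ratios with exact conditional 95% intervals; genes with 5 CPM in a library were compared at 2-fold. No test was made. Members and lists were chosen with earlier results of these data known.

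Named genes are all members, the neighbours in both gene clusters, the 4 genes past the floor farthest from 0 and the 2 most abundant of each pathway list (members included), the 2 most abundant markers of each other cell type and those at 0. Older symbols were matched through RefSeq. Some genes of the lists are not reported here and were left out of the list counts and medians. Lengths and positions are those of the GENCODE M21 principal transcripts, and promoters come from RefSeq. Calculations used Python 3.11.15, scipy 1.17.1, R 4.3.3, edgeR 4.0.16 and DESeq2 1.42.0 (scaling factors alone), and were tested on simulated data.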

Additional observations from a re-analysis of the deposited data

How the results depend on the processing

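No paired analysis was possible because each group had 1 library. Before the pseudocount, scaling by TMM added 0.12 to log2 ratios, DESeq2 size factors 0.11, the upper quartile 0.10 and totals without the 10 highest genes 0.03. With it, low genes moved less: under TMM Ccl3 went from -1.15 to -1.05. Over these scalings and pseudocounts of 0.5 and 5 CPM, the log2 fold ran from -1.14 to -1.004 for Il12rb1, -1.32 to -1.09 for Ifngr2, -1.75 to -1.21 for Ccl4, -1.25 to -0.70 for Ccl3, 0.76 to 0.95 for Ccl5, and 0.07 to 0.19 for Ifngr1. The 4 members counted as 2-fold lower became 3 with a pseudocount of 5 CPM, which left out Ccl3. With a floor of 20 CPM, which Ccl3 and Ccl4 do not reach, they became 2. They became 0 when the whole counting interval had to lie beyond 2-fold, a rule under which 8.42% of all genes past the floor were lower. The 0 members counted as higher became 1, Ccl5, at a 1.5-fold threshold, which 23.5% of all genes passed. Depth limits Ccl3, Ccl4, Ifng and Il12rb2 most. The CPM per kb of Ccl5, with the longest transcript chosen as an alternative after seeing the data, was the only such level that changed.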
